A study of Mus musculus with 4 samples.

Results

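Open chromatin was examined around the forkhead gene cluster Foxf1, Foxc2 and Foxl1 in adipose progenitors, the mesenchymal cells of fat tissue from which adipocytes form. The members are all ATAC-seq peaks that overlap chromosome 8 from 123350000 to 123800000 on the mouse build mm9, a window of 450 kb set to hold the cluster. The 4 peak lists held 72 such peaks among 198854 in all. Overlapping peaks of different libraries (1 bp or more) were joined, and the 72 peaks formed 28 of the 83319 merged regions of the series, numbered 1 to 28 here by position. The libraries came from fresh, untreated progenitors of C57BL/6 mice aged 16 weeks, with 2 from visceral fat (VAT 1 and VAT 2) and 2 from subcutaneous fat (SAT 1 and SAT 2). The labels say neither how the cells were selected nor whether each library stands for its own animals. Errors and p-values therefore measure the spread between libraries, which may be only technical.

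ATAC-seq uses a transposase that cuts accessible DNA, so that a peak marks a stretch of open chromatin. Forkhead proteins bind DNA through a winged-helix domain, and the 3 genes of the cluster act in mesoderm and mesenchyme. Foxf1 is needed in the splanchnic mesoderm that lines the gut and other viscera, and is a target of Hedgehog signalling. Foxc2 acts in mesenchyme and in lymphatic vessels, and its overexpression in the fat of mice makes them lean. Foxl1 marks mesenchymal cells beneath the gut epithelium. In the RefSeq order of coding genes, with the long noncoding RNA gene Fendrr added, all 3 of the 3 members were found, and the cluster reads Fendrr, Foxf1, Mthfsd, Foxc2 and Foxl1. Fendrr is a neighbour of Foxf1 with roles in heart and body wall development, and the nearest coding gene before it is Irf8, a transcription factor of myeloid cells. That table follows assembly GRCm38 and the peaks follow mm9. Gene positions on mm9 were not used here, so each peak is given by position and is not assigned to a gene, a promoter, an exon or an intron, and the labelled cell type was not checked against marker genes.

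The window was open in every library, at moderate strength. VAT 1 held 21 peaks and VAT 2 held 24, against 18 in SAT 1 and 9 in SAT 2. Both visceral libraries thus had more peaks here than both subcutaneous ones. The mean was 22.5 ± 2.12 peaks in VAT and 13.5 ± 6.36 in SAT (SD, n = 2 each), a difference of 9 peaks (two-sided exact permutation test, p = 0.333, below which a design of 2 against 2 cannot go). The lists themselves differ in length in the same order, with 56907 peaks in VAT 1, 62279 in VAT 2, 56823 in SAT 1 and 22845 in SAT 2. The sequencing depth behind them is unknown, so where a list has no peak the site may still be open.

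Set against the length of each list, the depots overlapped. The window took 0.0369% of the peaks of VAT 1 (95% Clopper-Pearson interval 0.0228% to 0.0564%) and 0.0385% of those of VAT 2 (0.0247% to 0.0573%). It took 0.0317% of the peaks of SAT 1 (0.0188% to 0.0501%) and 0.0394% of those of SAT 2 (0.0180% to 0.0748%). The highest and the lowest share both belonged to SAT, and both VAT libraries lay between them. The mean share was 0.0377% ± 0.00116 in VAT and 0.0355% ± 0.00546 in SAT (SD, n = 2 each), with a difference of 0.00218 percentage points (two-sided exact permutation test, p = 1). These intervals cover counting error only.

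**Figure D1:**
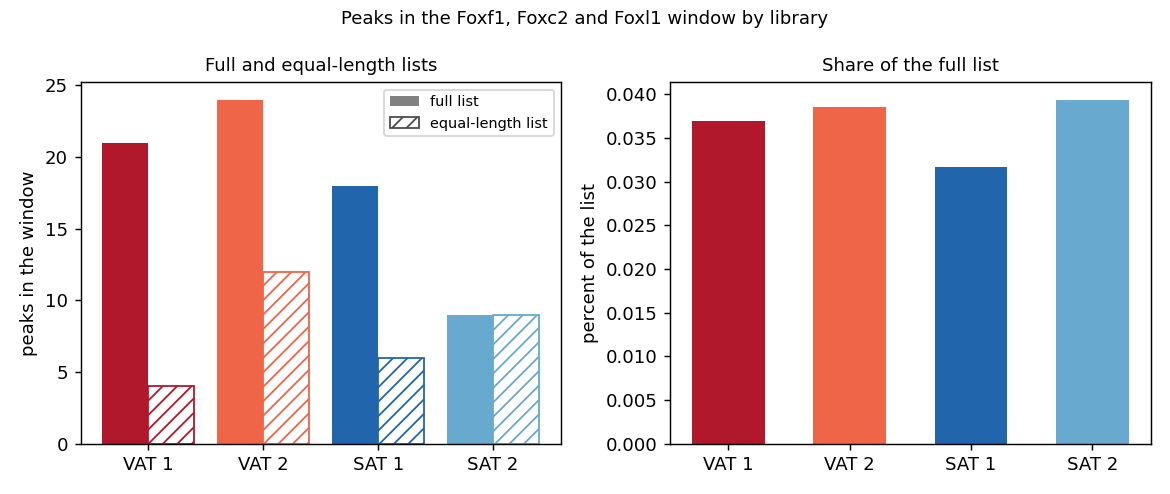
Left, number of peaks in the window for each library, in the full list (filled bars) and when every list is cut to its 22845 highest-scoring peaks (hatched bars). Right, peaks in the window as a percent of the full list. The full-list counts are 21 and 24 in VAT and 18 and 9 in SAT, whereas the shares lie between 0.0317% and 0.0394%.

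Covered length followed the number of peaks. Peaks covered 5375 bases of the window in VAT 1 and 7697 in VAT 2, against 5220 in SAT 1 and 1242 in SAT 2. The mean was 6536 ± 1642 bases in VAT and 3231 ± 2813 in SAT (SD, n = 2 each), and the difference of 3305 bases had the same smallest p of 0.333 in the exact permutation test. SAT 1 and VAT 1 were nearly level, and the low mean of SAT came from SAT 2. Peaks of SAT 2 were narrow here, with a median of 127 bp against 208 bp over its whole list. The median width was 181 bp in VAT 1, 300 bp in VAT 2 and 221 bp in SAT 1, where the whole lists had medians of 223, 220 and 215 bp.

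The strength of a peak was expressed as the percentile of its score within its own list, since the authors' scores are not on a scale known to be shared. The median percentile of the window's peaks was 43.9 in VAT 1 and 64.6 in VAT 2, against 51.4 in SAT 1 and 35.1 in SAT 2. VAT 2 stood highest, while VAT 1 lay between the SAT libraries. The mean of these medians was 54.2 ± 14.6 in VAT and 43.2 ± 11.5 in SAT (SD, n = 2 each), a difference of 11.03 points (two-sided exact permutation test, p = 0.667). Few peaks of the window were among the strong ones of their list. At or above the percentile of 80 stood 1 of 21 peaks in VAT 1 (20% over its whole list), 3 of 24 in VAT 2 (19.9%), 0 of 18 in SAT 1 (20.1%) and 0 of 9 in SAT 2 (19.9%).

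The 28 regions were unevenly placed along the window. From region 8 to region 16, a stretch of 42.2 kb, lay 9 regions, of which 4 had a peak in all 4 libraries. A second group of 7 regions lay in the last 50 kb of the window. Between regions 5 and 8, by contrast, a stretch of 110.9 kb (110903 bases) held only 2 regions, both found in VAT 2 alone and each with a score of 43, at the percentile of 9.82. The first 50 kb of the window held no peak in any library.

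**Figure D2:**
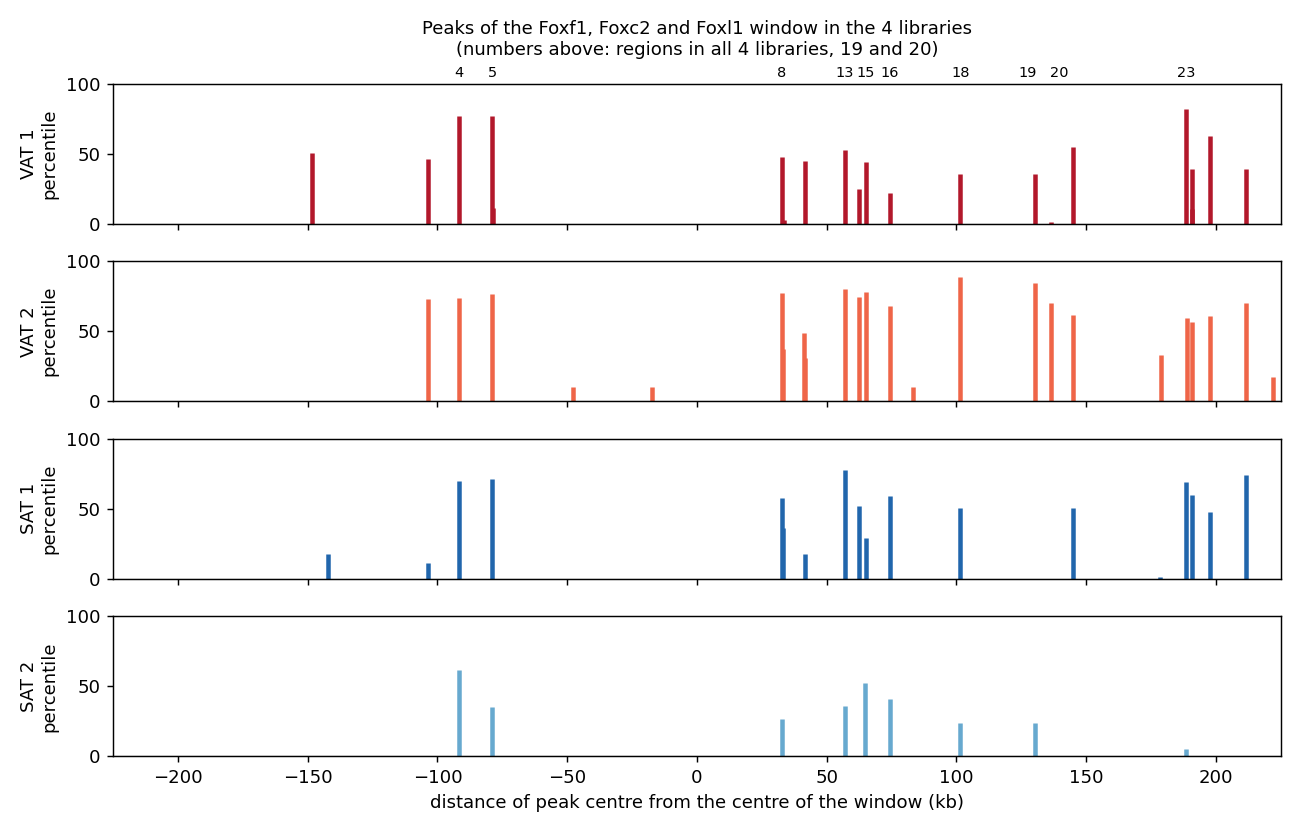
Peaks of the window in VAT 1, VAT 2, SAT 1 and SAT 2 from top to bottom, each drawn as a line at its centre. The horizontal axis is the distance from the centre of the window in kb, the height is the score percentile within the list, and the numbers mark the 8 regions with a peak in all 4 libraries together with regions 19 and 20. The tallest line is that of region 18 in VAT 2, at 88.6, and SAT 2 has 9 lines, the tallest at 61.4.

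Most regions were shared between depots. Of the 28, 8 had a peak in all 4 libraries (28.6%, with a 95% Clopper-Pearson interval of 13.2% to 48.7%). Over the whole series this share was 23.2%. The interval covers counting error only and takes the regions as independent, although they share their libraries. A further 7 lacked a peak only in SAT 2, against 19.5% of all regions. A peak in 1 library only was found for 9, against 36.4%, and these were 5 in VAT 2, 3 in VAT 1, 1 in SAT 1 and 0 in SAT 2. The shares of the window were near those of the whole series for these classes. Every one of the 9 peaks of SAT 2 coincided with a peak in both VAT libraries, and 17 of the 18 regions of SAT 1 had a peak in a VAT library. Over the whole series most regions of SAT 2 and of SAT 1 were shared in the same way. Regions in SAT 2 and both VAT libraries numbered 19350 with SAT 1 and 390 without it, whereas no class with SAT 2 that lacked a VAT library exceeded 543. Regions of SAT 1 without a VAT peak numbered 6534 in SAT 1 alone and 92 with SAT 2. Those with a VAT peak but none in SAT 2 numbered 16206 with both VAT libraries, 7809 with VAT 1 and 4110 with VAT 2. Those with SAT 2 as well numbered 19350 with both VAT libraries, 204 with VAT 1 and 381 with VAT 2.

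Regions restricted to a depot were rare, in the window as in the whole series. Only region 20 had a peak in both VAT libraries and in neither SAT library (1 of 28, against 4.6% of all merged regions). The opposite class, restricted to SAT, held 0 of 28, against 0.11%. Divisions other than depot gave similar small numbers. Regions only in the 2 replicate 1 libraries numbered 0 (9.37% of all regions), and those only in the 2 replicate 2 libraries also 0 (0.652%). Regions 9 and 22 were found only in SAT 1 and VAT 2 (2 of 28, against 4.93%), and 0 only in SAT 2 and VAT 1 (0.096%).

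**Figure D3:**
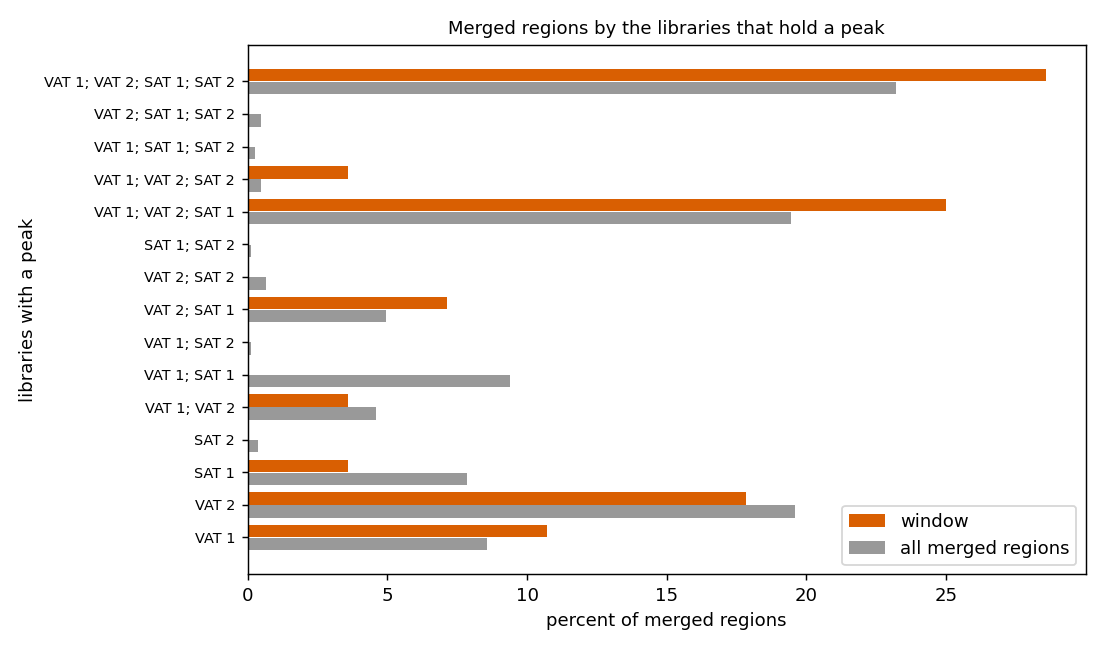
Percent of merged regions by the combination of libraries that hold a peak, for the 28 regions of the window (orange) and all 83319 regions (grey). The largest class in both is that with a peak in all 4 libraries, at 28.6% of the window and 23.2% of all regions, and regions only in VAT 1 and SAT 1 are absent from the window.

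The 8 regions common to all libraries are regions 4, 5, 8, 13, 15, 16, 18 and 23. Their widths ran from 376 to 877 bp with a median of 455 bp, against a median of 524 bp for all 19350 common regions. Their scores were low for that class. Of the 8, the list percentile was below the median of all common regions for 7 in VAT 1, 7 in VAT 2, 8 in SAT 1 and 7 in SAT 2. The median percentile of the 8 was 49.9 in VAT 1 (80.3 over all common regions), 76.8 in VAT 2 (83.5), 64.4 in SAT 1 (80.4) and 35.7 in SAT 2 (55.6).

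In the left part of the window, regions 4 and 5 were the ones with the highest mean percentile over the 4 libraries. Region 4 (123483067 to 123483616) had scores of 205 in VAT 1, 174 in VAT 2, 152 in SAT 1 and 107 in SAT 2, at percentiles of 76.9, 73.4, 69.9 and 61.4. It was the strongest peak of SAT 2 in the window. The bases inside a peak of every library ran from 123483329 to 123483455. Region 5 (123495769 to 123496645) had scores of 204 in VAT 1, 189 in VAT 2, 158 in SAT 1 and 70 in SAT 2, at percentiles of 76.7, 76.3, 71.1 and 35.1. It was the widest region of the window, with 745 covered bases in VAT 1, 872 in VAT 2 and 862 in SAT 1, but only 101 in SAT 2.

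Regions 4 and 5 were the only common regions in which both VAT percentiles exceeded both SAT percentiles (2 of 8, against 32.7% of all common regions). The mean percentile of region 4 was 75.1 ± 2.45 in VAT and 65.6 ± 6.06 in SAT, and that of region 5 was 76.5 ± 0.273 in VAT and 53.1 ± 25.5 in SAT (SD, n = 2 each). In no common region did both VAT percentiles lie below both SAT ones (0 of 8, against 2.99%). SAT 2, whose list is short, had the lowest list percentile in 6 of the 8 regions, and in 75.3% of all common regions.

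In the middle of the window, regions 8, 13, 15 and 16 stood higher in VAT 2 than in VAT 1. Region 8 (123607549 to 123607924) had scores of 100 in VAT 1, 197 in VAT 2, 117 in SAT 1 and 62 in SAT 2, at percentiles of 47.3, 77.4, 57.8 and 26.9. Region 13 (123631794 to 123632491) had scores of 113 in VAT 1, 217 in VAT 2, 189 in SAT 1 and 72 in SAT 2, at percentiles of 52.5, 80.5, 77.9 and 36.3. In both regions the depots overlapped, because SAT 1 stood above VAT 1. Region 13 had the longest stretch shared by all 4 lists among the common regions, 271 bases from 123632076 to 123632346, and it held the highest score of SAT 1 in the window.

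Region 15 (123639929 to 123640310) had scores of 95 in VAT 1, 202 in VAT 2, 66 in SAT 1 and 92 in SAT 2, at percentiles of 43.9, 78.3, 28.8 and 52.2. In list percentile both replicate 2 libraries stood above both replicate 1 libraries here. On that scale region 15 was the only common region with SAT 2 above SAT 1. Region 16 (123649214 to 123649709) had scores of 62 in VAT 1, 150 in VAT 2, 120 in SAT 1 and 77 in SAT 2, at percentiles of 22.0, 67.8, 59.3 and 40.7. It was the only common region with a lower mean percentile in VAT, at 44.9 ± 32.4 in VAT and 49.99 ± 13.2 in SAT (SD, n = 2 each), a difference of -5.09 points that was far smaller than the spread within VAT.

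Region 18 (123676343 to 123676750) carried the highest score of the window. Its scores were 80 in VAT 1, 294 in VAT 2, 100 in SAT 1 and 59 in SAT 2, at percentiles of 35.4, 88.6, 50.6 and 23.6. The peak was strong in VAT 2 alone, and VAT 1 lay between the SAT libraries. The mean percentile was 62.0 ± 37.6 in VAT and 37.1 ± 19.1 in SAT (SD, n = 2 each), a difference of 24.9 points that was smaller than the SD within VAT. Region 23 (123763500 to 123763913) showed the opposite order of the VAT libraries, with scores of 237 in VAT 1, 120 in VAT 2, 151 in SAT 1 and 40 in SAT 2, at percentiles of 81.9, 59.8, 69.4 and 5.43. It was the strongest peak of VAT 1 and the weakest of SAT 2 in the window.

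**Figure D4:**
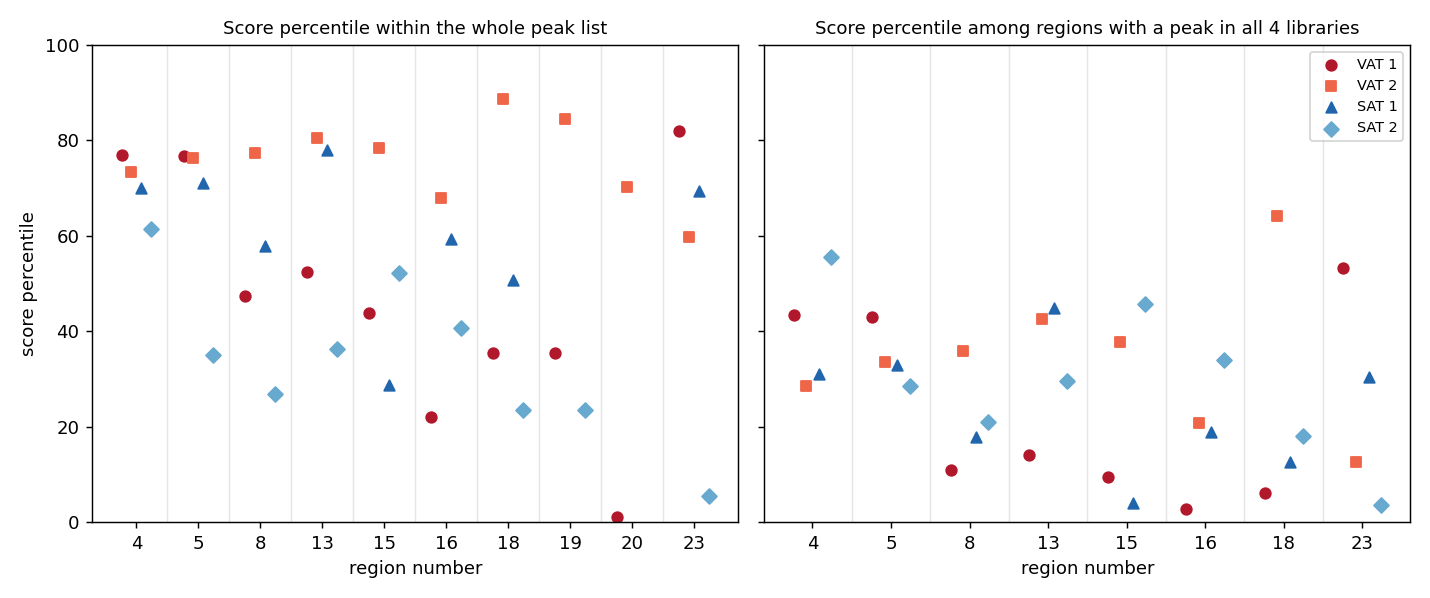
Score percentile of each library in regions 4, 5, 8, 13, 15, 16, 18, 19, 20 and 23 within the whole list (left), and of the 8 common regions ranked only among regions with a peak in all 4 libraries (right). Circles are VAT 1, squares VAT 2, triangles SAT 1 and diamonds SAT 2. VAT 2 reaches 88.6 in region 18 and VAT 1 reaches 81.9 in region 23 on the left, and on the right SAT 2 is the lowest in 2 of the 8 regions, against 6 of the 8 on the left.

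Ranking each library only among the 19350 common regions gives a percentile that does not depend on the other peaks of its list. On the list scale the VAT mean was above the SAT mean in 7 of the 8 regions, with a median difference of 20.3 points, against 86% of all common regions and a median of 10.4 points. Ranked among common regions it was above in 4 and below in 4, with a median difference of 1.45 points, against 50.7% and a median of 0.14 points. The number of regions with both VAT percentiles above both SAT ones was then 1 of 8, region 5 (15% of all common regions), and 0 of 8 lay the other way (15.6%). SAT 2 was the highest library in 3 of the 8 on this scale (30.3% of all common regions) and VAT 2 in 2 (24.9%), whereas on the list scale VAT 2 was highest in 5 (44.5%). Ranked among common regions, SAT 2 stood above SAT 1 in 5 of the 8, against 1 on the list scale. Both replicate 2 libraries then stood above both replicate 1 libraries in regions 8, 15, 16 and 18. How often that order occurs over all common regions was not counted.

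The difference between the VAT libraries remained on this scale. In region 18 the percentile among common regions was 6.04 in VAT 1 and 64.1 in VAT 2, and 12.5 in SAT 1 and 17.98 in SAT 2. Only 61 of the 19350 common regions (0.315%) had at least so large an excess of VAT 2 over VAT 1. In region 23 it was 53.2 in VAT 1 and 12.7 in VAT 2, against 30.4 in SAT 1 and 3.52 in SAT 2, and 3.34% of common regions had at least so large an excess of VAT 1 over VAT 2. Regions 18 and 23 were singled out after their values were seen. In both regions the VAT libraries differed from each other by more than the depot means did, which differed by 19.8 points in region 18 and 16.0 points in region 23.

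Right of region 18, regions 19 and 20 were open in VAT and had no peak in SAT 1. Region 19 (123705246 to 123705602) had scores of 80 in VAT 1, 249 in VAT 2 and 59 in SAT 2, at percentiles of 35.4, 84.4 and 23.6. A lack of a peak in SAT 1 only was uncommon in the series (1 of 28 in the window, against 0.468% of all merged regions). Among the 390 such regions, 7 (1.79%) had a VAT 2 percentile at least as high. Region 19 was singled out after its values were seen.

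Region 20 (123711379 to 123711867), the only region restricted to VAT, had a score of 30 in VAT 1 and 160 in VAT 2, at percentiles of 1.12 and 70.3. The peak in VAT 1 was among the weakest of that list, and it was 139 bp wide against 485 bp in VAT 2. Of the 3835 regions restricted to VAT, 4.25% had a VAT 2 percentile at least as high and 3.13% a VAT 1 percentile at most as high. Both comparisons were chosen after the values of region 20 were seen. The status of region 20 therefore rested on a VAT 1 peak near the lowest score of that library's own list, which was 20.

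The 7 regions that lacked a peak only in SAT 2 were regions 3, 12, 14, 21, 24, 26 and 27. Their percentiles ran from 24.9 to 62.9 in VAT 1 (median 44.6), from 30.5 to 74.6 in VAT 2 (median 61.3) and from 10.9 to 74.1 in SAT 1 (median 50.6), so the libraries overlapped widely. Region 3 (123471148 to 123471525) was lower in SAT 1: it scored 99 in VAT 1 and 172 in VAT 2, against 46 in SAT 1. Region 27 (123786638 to 123787014) was highest in SAT 1 by percentile, and scored 87 in VAT 1 and 159 in VAT 2, against 171 in SAT 1. Region 26 (123772789 to 123773136) had the longest stretch shared by its lists, 281 bases, with scores of 143 in VAT 1, 126 in VAT 2 and 93 in SAT 1.

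When each list was cut to its 22845 highest-scoring peaks, the length of SAT 2, the window separated VAT 2 from VAT 1. There remained 4 of 21 peaks in VAT 1 (40.1% over the whole list), 12 of 24 in VAT 2 (36.7%), 6 of 18 in SAT 1 (40.2%) and, by construction, 9 of 9 in SAT 2 (100%). The mean was then 8.0 peaks in VAT and 7.5 in SAT. The number of regions restricted to VAT was 0 of 15 (1.81% of all regions of the cut lists) and that of regions restricted to SAT also 0 (1.5%). The 2 regions left in all 4 libraries were regions 4 and 5 (38.7% of all regions of the cut lists).

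By replicate number the cut lists were lopsided. Of the 15 remaining regions, 5 had a peak only in VAT 2 and SAT 2 (4.4% of all regions of the cut lists), and 0 only in VAT 1 and SAT 1 (7.35%). These 5 were regions 8, 15, 16, 18 and 19. Each had a weaker peak in the full list of VAT 1, and regions 8, 15, 16 and 18 also had one in that of SAT 1, whereas region 19 had none there. Regions 8 and 16 lay at the edge of the cut in SAT 1, with scores of 117 and 120 where the lowest score kept was 120. That score was shared by 870 peaks of SAT 1, of which 147 were kept. With all peaks tied at the lowest kept score included, an alternative chosen after seeing the data, 4 of 15 regions were only in VAT 2 and SAT 2 (4.25% of all regions so defined) and 0 only in VAT 1 and SAT 1 (7.56%).

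Overlap of the lists was close to that of the series, except for SAT 2. The Jaccard index, which is the shared over the joint covered bases, was 0.513 for VAT 1 and VAT 2 in the window (0.506 over all chromosomes). It was 0.578 for VAT 1 and SAT 1 (0.605) and 0.559 for VAT 2 and SAT 1 (0.512). With SAT 2 it was 0.213 for VAT 1 (0.322), 0.161 for VAT 2 (0.301) and 0.207 for SAT 1 (0.328). The VAT libraries were thus no closer to each other here than either was to SAT 1.

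The order of the 8 common regions by list percentile also differed between libraries. Across these regions, which share their libraries and are not independent, Spearman's rho was -0.43 for VAT 1 and VAT 2, 0.60 for VAT 1 and SAT 1 and -0.24 for VAT 2 and SAT 1. With SAT 2 it was -0.14 for VAT 1, -0.02 for VAT 2 and 0.07 for SAT 1. Over all 19350 common regions it was 0.755 for VAT 1 and VAT 2, 0.831 for VAT 1 and SAT 1 and 0.750 for VAT 2 and SAT 1. Over those regions rho with SAT 2 was 0.661 for VAT 1, 0.703 for VAT 2 and 0.669 for SAT 1. With 8 regions these are descriptions only.

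Along the genome the window was moderately rich in open chromatin. All chromosomes were tiled in stretches of 450 kb, and 5173 tiles held at least 1 merged region, with a median of 13 regions (quartiles 4 and 25). The 28 regions of the window stood at the percentile of 80.6 of these tiles, and at 79.2 of the 253 tiles of chromosome 8. Its 8 common regions stood at 85.7, against a median of 2. By library the number of peaks stood at 83.0 in VAT 1, 85.2 in VAT 2, 77.1 in SAT 1 and 84.5 in SAT 2, so the place of the window was much the same in each.

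**Figure D5:**
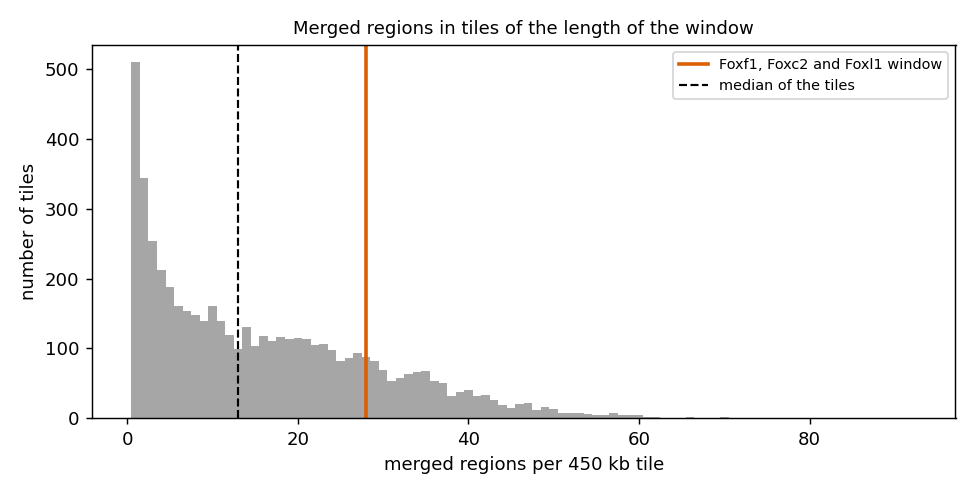
Number of 450 kb tiles by the number of merged regions they hold, over all chromosomes. The orange line marks the 28 regions of the window and the dashed line the median of 13. The window lies in the upper part of the range, well short of the highest tile at 92.

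The tiles with the pattern most like the window were found by the Euclidean distance over the shares of the 4 lists, in percent. They lay on chromosome 9 from 110700001 to 111150000 and on chromosome 17 from 46350001 to 46800000, both at a distance of 0.00366, and on chromosome 10 from 60300001 to 60750000, at 0.00425. The tile on chromosome 9 held 20 and 22 peaks in VAT 1 and VAT 2, against 18 and 9 in SAT 1 and SAT 2. This likeness is one of peak numbers over 4 libraries and carries no information on genes.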

How the data were processed

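There was 1 deposited peak list per library, and replicates were not pooled for peak calling. Per the submitters' processing notes, the tools were Bowtie2 and MACS2 and the build was mm9. Their versions and options, the removal of duplicates and any shift of read ends were not given in the sources used here. Every deposited peak carries the score the authors obtained from their caller, in whole numbers from 20 upwards and with no stated scale. It was used only to rank peaks within a list. A longer list can follow from deeper or cleaner data, which raises peak counts and moves percentiles.

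Sample titles gave the groups and the replicate numbers. The window, members and lists were chosen with earlier results of these data known. Percentiles use average ranks for ties, and a region takes its highest peak per library. The text names every region of the window in all 4 libraries or restricted to a depot, and others where said. Values per library were compared by a two-sided exact permutation test. Regions are not replicates and were not tested. Interval code was tested on simulated data and gave the same 83319 merged regions as bedtools 2.31.1. Computations used Python 3.11.15, numpy 2.4.6, pandas 2.3.3 and scipy 1.17.1. Alternatives were 50% reciprocal overlap, merging within 500 bp, 200 bp around peak centres, the top 50% of each list, equal-length lists, a window 50 kb shorter or longer at each end, membership by peak centre, ranking among common regions, each library left out, and a replicate block. Sequences under the peaks were not analysed here.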

Additional observations from a re-analysis of the deposited data

How the results depend on the processing

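The excess of VAT over SAT in mean peak number and mean covered bases kept its direction in every setting run. With equal-length lists, however, the difference in peak number was 0.50 and that in covered bases 1412, and the depots overlapped in both. The difference in median percentile was then 23.3 points. These percentiles were still those of the full lists, and the cut took low-scoring peaks from every list but SAT 2. A rise from 11.03 points can therefore follow from the cut alone. In the top 50% of each list the difference in peak number was 5.5 and that in share of the list 0.0116 percentage points. The two-sided exact permutation test there gave p = 0.667 for peak number and for covered bases, so the depots overlapped in both. The difference in share of the list was -0.00044 percentage points with the window narrowed by 50 kb at each end, and the cause was not tested. Leaving out 1 library at a time gave differences of 4.5 to 13.5 peaks, 1316 to 5294 covered bases, -0.00168 to 0.00604 percentage points of the list (below 0 only without SAT 1) and 0.694 to 21.4 points of median percentile, the lowest without VAT 2. With a replicate block the differences were the same. The exact sign-flip p was 0.50 for peaks and bases and 1 for share and percentile, where 0.50 is the smallest possible. The labels do not say that a replicate number marks a shared animal or day. Deviations of same-numbered libraries correlated at 0.215 over the 19350 common regions.

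Regions in all libraries (8) numbered 3 with 50% reciprocal overlap, 1 in the top 50% of each list, 2 with equal-length lists, and 8 to 15 with 1 library left out, the highest without SAT 2. Regions restricted to VAT (1) numbered 2 in the top 50%, 0 with equal-length lists and 2 to 8 with 1 library left out (6 without VAT 1, 4 without VAT 2, 8 without SAT 1 and 2 without SAT 2). Those restricted to SAT (0) numbered 0 to 1 with a library left out, and 1 only without SAT 2. When a library is left out, fewer lists have to meet the rule. Regions only in the replicate 1 libraries (0) numbered 1 with 50% reciprocal overlap, 1 with the window widened and 0 to 7 with a library left out. Those only in the replicate 2 libraries (0) numbered 1 in the top 50% and 5 with equal-length lists. They numbered 4 with ties kept (chosen after seeing the data) and 0 to 5 with a library left out. Regions only in SAT 1 and VAT 2 (2) numbered 5 in the top 50% and 2 to 9 with a library left out. They numbered 1 with 50% reciprocal overlap, merging within 500 bp, equal-length lists or the window narrowed. Regions only in SAT 2 and VAT 1 (0) numbered 1 with 50% reciprocal overlap and 0 to 3 with a library left out. Common regions with both VAT percentiles above both SAT ones (2) numbered 0 with 50% reciprocal overlap, 1 when ranked among common regions and 3 to 7 with a library left out. The opposite order (0) was found for 0 to 2 with a library left out. With no read counts, the depth behind a missing peak is unknown.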
